A study of Homo sapiens with 17 samples.

Results

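The genes *OTX1*, *OTX2*, *GBX2* and *EN1* were followed through promoter interactions, Hi-C and H3K4me1 in human pluripotent stem cells (PSCs) of the naive and the primed state. Their promoters were carried by 5 of the 15982 baited *Hin*dIII fragments that occurred in either interaction list, 1 each for *OTX1*, *OTX2* and *GBX2* and 2 for *EN1*. The members were to be found by gene names in the fourth column of the lists, but this column holds strand marks. Baits were therefore found by placing GENCODE promoters, each taken as a transcript start with the 1000 bp before it, on the baited fragments. All samples were of 1 cell line, H9 NK2, a derivative of the human embryonic stem cell line H9 that carries *NANOG* and *KLF2* transgenes from its conversion to the naive state. Naive PSCs were grown on Matrigel in N2B27-type medium with PD0325901 (a MEK inhibitor), CHIR99021 (a GSK3 inhibitor), human LIF and the protein kinase C inhibitor Go6983, and primed PSCs on Vitronectin in TeSR-E8, both in low oxygen. Promoter Capture Hi-C (PCHi-C) joins DNA ends that lie close together in fixed nuclei and enriches the joined pairs that hold a promoter. Its data came as 1 list per cell type, in which the authors had combined 2 replicates. Hi-C came as 1 library per cell type. H3K4me1, a histone mark of enhancers and of the flanks of promoters, was profiled by CUT&RUN in 5 libraries, 2 of naive and 3 of primed PSCs, of 6.74 to 26.6 M reads (M for mega).

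All 4 genes encode homeodomain transcription factors that pattern the anterior neural tube. *OTX2* and its relative *OTX1* act in the forebrain and midbrain, *GBX2* acts in the anterior hindbrain, and the border between the *OTX2* and *GBX2* territories sets the position of the midbrain-hindbrain organiser. *EN1* is expressed around that organiser and is needed for the midbrain and cerebellum. *OTX2* is in addition expressed in primed PSCs and takes part in the exit from the naive state. RNA was not analysed here, so the results concern contacts and chromatin marks at these genes and not their expression.

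In GRCh38, the *OTX1* bait (ENSG00000115507.10) was chr2:63048939-63053162, which also holds the promoter of *EHBP1-AS1*. The *OTX2* bait (ENSG00000165588.19) was chr14:56809443-56813351, which also holds that of *OTX2-AS1*. The *GBX2* bait (ENSG00000168505.7) was chr2:236163476-236169187, shared with *GBX2-AS1*. The *EN1* promoter fragment (ENSG00000163064.7) was chr2:118845316-118857010, and its neighbour chr2:118831062-118845315, called the second *EN1* fragment here, holds a shorter *EN1* transcript start and the promoter of *LINC01956*. Reads captured at a shared fragment cannot be assigned to one of its genes. RefSeq (GRCh38.p14) gave promoter sequences for 3 of the 4 genes and none was matched for *EN1*. It also gave an *OTX2* promoter with its start at chr14:56805667, which lies outside the *OTX2* bait and was not followed. The 250 bases upstream of the annotated start on the bait are shown for *OTX2* and *GBX2*, whose baits had no interaction in the naive list. They were searched on both strands for TAATCC, the core bound by OTX-type homeodomains, and for TAATTA, the core of many other homeodomains, both of which would stand in capitals.
OTX2, chr14:56810480-56810729, minus strand: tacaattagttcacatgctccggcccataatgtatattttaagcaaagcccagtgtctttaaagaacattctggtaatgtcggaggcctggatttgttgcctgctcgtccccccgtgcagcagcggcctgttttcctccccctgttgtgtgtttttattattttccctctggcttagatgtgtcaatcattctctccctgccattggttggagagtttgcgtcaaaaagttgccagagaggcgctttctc
GBX2, chr2:236168387-236168636, minus strand: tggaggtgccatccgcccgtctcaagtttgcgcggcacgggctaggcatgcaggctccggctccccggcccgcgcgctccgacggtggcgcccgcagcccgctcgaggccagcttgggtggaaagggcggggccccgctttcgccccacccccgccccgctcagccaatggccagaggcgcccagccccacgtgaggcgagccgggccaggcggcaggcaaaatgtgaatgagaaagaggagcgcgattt
Neither hexamer was present in these windows. Of 35116 RefSeq promoters of the same length, 5.62% held TAATCC and 4.35% held TAATTA. The *GBX2* window was 72% G and C and the *OTX2* window 47.2%.

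The partner fragments that the results turn on are shown next. For each gene, a 500 bp tile with a large H3K4me1 difference past the threshold at a contacted fragment was taken. Its libraries had to be without overlap between the cell types, and tiles that overlap a UTR were left out. The central 300 bases are printed with the *Hin*dIII site AAGCTT, at which the chromatin was cut, in capitals.
OTX1 partner in an intron of LINC01833, chr2:44926101-44926400, plus strand: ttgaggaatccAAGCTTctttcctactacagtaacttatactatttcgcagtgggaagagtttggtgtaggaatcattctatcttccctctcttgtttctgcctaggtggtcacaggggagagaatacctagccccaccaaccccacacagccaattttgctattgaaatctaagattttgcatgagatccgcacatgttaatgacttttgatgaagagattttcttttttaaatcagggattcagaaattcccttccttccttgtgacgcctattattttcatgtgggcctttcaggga
OTX2 partner between genes, near BMP4, chr14:53946101-53946400, plus strand: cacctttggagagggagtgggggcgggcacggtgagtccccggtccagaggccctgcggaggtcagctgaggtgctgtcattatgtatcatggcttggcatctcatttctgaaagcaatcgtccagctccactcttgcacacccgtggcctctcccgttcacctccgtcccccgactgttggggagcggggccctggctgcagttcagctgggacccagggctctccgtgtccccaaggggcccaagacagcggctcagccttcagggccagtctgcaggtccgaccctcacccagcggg
GBX2 partner in an intron of AGAP1, chr2:235807601-235807900, plus strand: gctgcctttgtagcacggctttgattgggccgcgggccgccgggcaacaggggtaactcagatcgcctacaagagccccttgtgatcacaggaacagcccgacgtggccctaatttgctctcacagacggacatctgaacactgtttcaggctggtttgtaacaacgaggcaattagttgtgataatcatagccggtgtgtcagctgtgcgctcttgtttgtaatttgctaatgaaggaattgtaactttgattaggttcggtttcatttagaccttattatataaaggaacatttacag
EN1 partner between genes, beside PAX8, chr2:113279101-113279400, plus strand: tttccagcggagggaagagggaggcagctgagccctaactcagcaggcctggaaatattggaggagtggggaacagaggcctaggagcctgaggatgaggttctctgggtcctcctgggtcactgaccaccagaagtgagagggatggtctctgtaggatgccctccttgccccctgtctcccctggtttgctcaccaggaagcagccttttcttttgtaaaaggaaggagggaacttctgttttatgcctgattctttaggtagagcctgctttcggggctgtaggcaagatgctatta
None of the 4 windows held TAATCC or TAATTA. Among the central 300 bases of 465122 tested tiles, 17.3% held TAATCC and 9.28% held TAATTA. In the *OTX2* tile, H3K4me1 was -1.64 and -1.75 log2 RPM in the naive libraries and 1.38, 0.93 and 1.24 in the primed ones. In the *GBX2* tile, the naive values were -1.86 and -2.91 and the primed values 1.10, 1.27 and 1.40. The value of -2.91 is that of a tile without reads in the second naive library. The *EN1* tile stood at -2.86 and -2.75 in naive and at 0.55, 0.48 and 0.31 in primed PSCs. In these 3 tiles, as in that of *OTX1*, every primed library was above both naive libraries, which follows from choosing tiles without overlap. All 4 tiles also entered the tile test through their primed values alone, so their differences only describe the tiles shown. The *OTX1* tile had the widest primed spread, with naive values of -1.64 and -1.75 and primed values of 1.66, -0.17 and 1.51.

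The members had more promoter interactions in primed than in naive PSCs. Counting both *EN1* fragments, 23 interactions were listed in naive and 89 in primed PSCs, 14 of them in both lists. Over all baits, 79330 and 88985 interactions were listed, a ratio of 1.12. *OTX2* had 0 naive and 15 primed interactions, *GBX2* 0 and 8, and *OTX1* 2 and 8. The *EN1* promoter fragment had 17 and 26, and the second *EN1* fragment 4 and 32. With 1 added to each number, 4 of the 5 baits had at least 2-fold more interactions in primed and at least 5 in the longer list, which the *EN1* promoter fragment with its ratio of 1.5 did not reach. Over all baits this held for 12.3%. At a score of at least 7, the members had 7 naive and 52 primed interactions. The baits of *OTX2* and *GBX2* were the 2 of 5 with no naive and at least 5 primed interactions, which held for 1.76% of all baits. A pair absent from a list had a CHiCAGO score under 5, which does not mean that it had no reads, and with 1 list per cell type no difference between the lists could be tested.

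**Figure D1:**
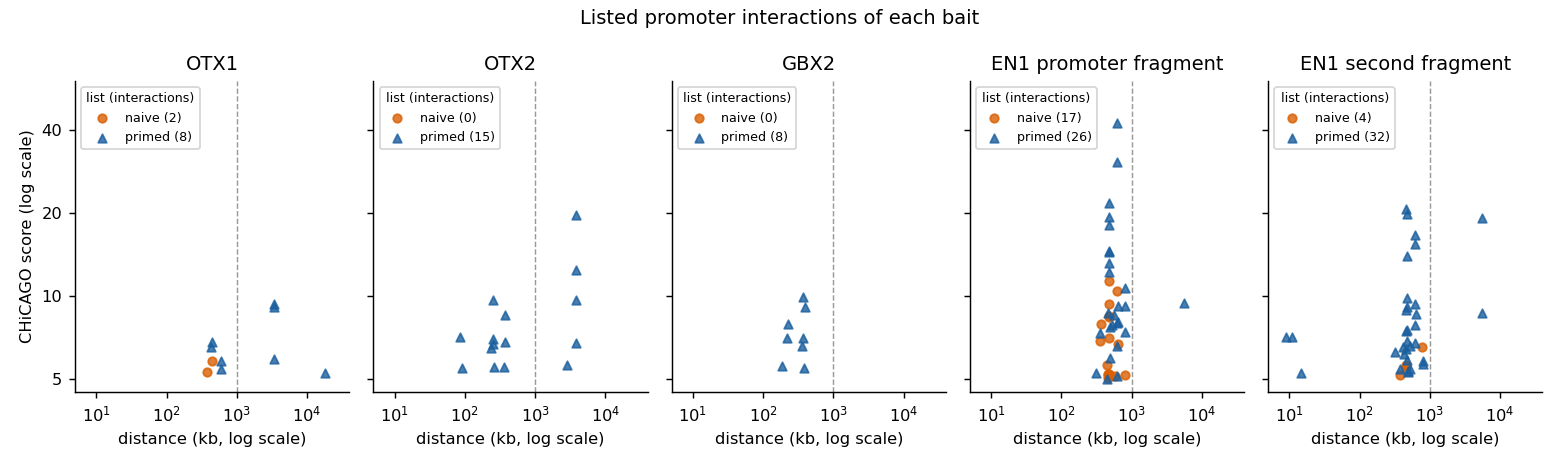
Promoter interactions of the 5 baits by distance between the fragments (kb, log scale) and CHiCAGO score (log scale), with naive interactions as orange circles, primed ones as blue triangles and a dashed line at 1 Mb. The primed points outnumber the naive points in every panel, from 8 against 2 for *OTX1* to 32 against 4 for the second *EN1* fragment, and no naive point lies beyond 1 Mb.

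The genes differed in how far listed naive and primed contacts coincided, which is bounded by their numbers of interactions. None of the primed interactions of *OTX1*, *OTX2* or *GBX2* was in the naive list as the same pair of fragments. For *OTX2* and *GBX2* this follows from their having no naive interaction. The *EN1* promoter fragment shared 11 of its 26 primed interactions with naive PSCs and the second *EN1* fragment 3 of 32. Over the members 15.7% of the primed interactions (14 of 89; Wilson interval of 9.61 to 24.7%, for counting error only) were also naive, against 44.2% of all primed interactions. With 23 naive interactions, at most 23 of the 89 could be shared, so this share is not a result separate from the numbers. When a naive interaction of any bait with both ends within 10 kb also counted, 43 of 89 were matched. The matched pairs were 20 of 26 and 21 of 32 at the *EN1* fragments, 2 of 8 at *OTX1*, and 0 of 15 and 0 of 8 at *OTX2* and *GBX2*. At *OTX2* and *GBX2* a match could come only from a naive interaction of another bait, and none was listed. Most of the contacts of *EN1* had a listed naive neighbour, which could also be from its own baits.

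The *EN1* fragments contacted a region of lncRNA genes and intergenic DNA between 312.4 and 809.2 kb away on the side of *INSIG2* and *CCDC93*, apart from *PAX8* and 3 fragments 9.1 to 14.5 kb away. In all they had 44 partner fragments, of which 21 were contacted by both. Among the 39 partners listed in primed, 19 were common to both fragments, and among the 19 listed in naive, 2 were. In primed PSCs, the pair with the highest score joined the promoter fragment to the start of the lncRNA gene *THORLNC* (chr2:118221660-118223449), with 11 reads and a score of 10.43 in naive and 32 reads and a score of 42.29 in primed PSCs. In naive PSCs, the highest score, 11.34 with 14 reads, was that of the promoter fragment with chr2:118368435-118369415. The fragment beside the *THORLNC* start had 24 reads and a score of 30.58 in primed and was not listed in naive. From the second *EN1* fragment, the *THORLNC* start had 19 reads and a score of 15.49 in primed only. Neighbouring fragments lie on the same stretch of chromatin, so these are not independent contacts.

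The partners of *OTX2* within 1 Mb formed 3 groups in primed PSCs. The first, at 85.0 and 90.3 kb (33 and 26 reads), lay in the antisense lncRNA gene *OTX2-AS1*. The second lay around *LINC03059* at 239.4 to 259.3 kb (11 to 17 reads), with most of its fragments in introns of *OTX2-AS1* as well. The third lay beside the exocyst gene *EXOC5* at 359.7 to 377.7 kb (9 to 11 reads). Over 1 Mb away, a fragment 2.23 kb from *BMP4*, which encodes a bone morphogenetic protein, had 4 reads and a score of 5.66 over 2.86 Mb on the other side.

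The partners of *GBX2* were 8 fragments inside *AGAP1*, which encodes a regulator of endosomal traffic, at 185.4 to 393.3 kb, with 14 to 23 reads and scores of 5.48 to 9.94 in primed PSCs. *OTX1* contacted *WDPCP*, a planar polarity and ciliogenesis gene, in both cell types but at different fragments. Its naive partners were at 381.1 and 449.0 kb with 9 reads each, and its primed partners there at 435.3 and 437.8 kb with 10 reads each. A further 2 primed partners lay 592.4 and 595.2 kb to the other side near *TMEM17*. The other 4 primed partners of *OTX1* were over 1 Mb away. Among them, 3 were in *MEIS1*, which encodes a TALE homeodomain cofactor, at 3.38 to 3.39 Mb (4 to 6 reads, scores of 5.94 to 9.34). The last was the start of *LINC01833*, 14.4 kb from the forebrain gene *SIX3* and 18.1 Mb from *OTX1*, with 3 reads and a score of 5.29.

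The 12 interactions over 1 Mb were all in primed PSCs, at 4 of the 5 baits, whereas 9.73% of all baits had such an interaction in primed. They comprised 5 of *OTX2*, 4 of *OTX1* and 3 of *EN1*, and *GBX2* had none. The *EN1* contacts went 5.56 to 5.57 Mb to *PAX8*, a paired-box gene that marks the midbrain-hindbrain border early. The second *EN1* fragment had 8 reads and a score of 19.15 with chr2:113273072-113275227 in *PAX8-AS1*, and 4 reads with the *PAX8* promoter fragment. The *EN1* promoter fragment also had 4 reads with the latter.

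Primed Hi-C, which was made without capture, was read at the same places in bins of 100 kb. PCHi-C is captured from Hi-C library DNA, and the pairs were chosen for scoring above a distance-dependent background in PCHi-C. Counts above the mean at the distance are therefore no independent support. The same values over other listed interactions were not computed, so those below only describe these pairs. The 12 interactions fell into 5 pairs of bins, and all 5 had more contacts than the mean of pairs at the same distance on the chromosome. *EN1* with *PAX8* had 13 contacts where the mean was 1.64. *OTX1* had 16 contacts with the *MEIS1* bin against a mean of 3.63 and 4 with the *LINC01833* bin against 0.785. *OTX2* had 19 with the *BMP4* bin against 4.99. The 5 pairs stood between the 97.5th and the 99.8th percentile of pairs at their distance. Together they had 74 contacts against 14.2, a ratio of 5.21 (95% Poisson interval of 4.09 to 6.54, for counting error in 1 library only).

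Scaling each pair by the coverage of its bins left 4 of the 5 above the mean, with a ratio of 2.18 for *BMP4* and 4.73 for *LINC01833*. The *MEIS1* pair fell to 0.94, and the *PAX8* pair rose to 30.6. Of the 14 pairs of bins up to 1 Mb apart, 12 were above the mean, with a median ratio of 2.08. The lowest, 0.62, was a pair of *OTX1* whose interaction was listed in naive only, and its ratio scaled by coverage was 1.04. *GBX2* had ratios of 0.853 to 1.71 before that scaling. None of the 5 long pairs was listed in the naive Hi-C file, in which pairs of few contacts relative to their coverage are missing, so a naive count of 0 cannot be read from it. All 14 shorter pairs were listed there. The *OTX2* bin had 376 naive and 599 primed contacts with the bin 2 bins away and 344 and 460 with the bin 3 bins away, without correction for depth.

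**Figure D2:**
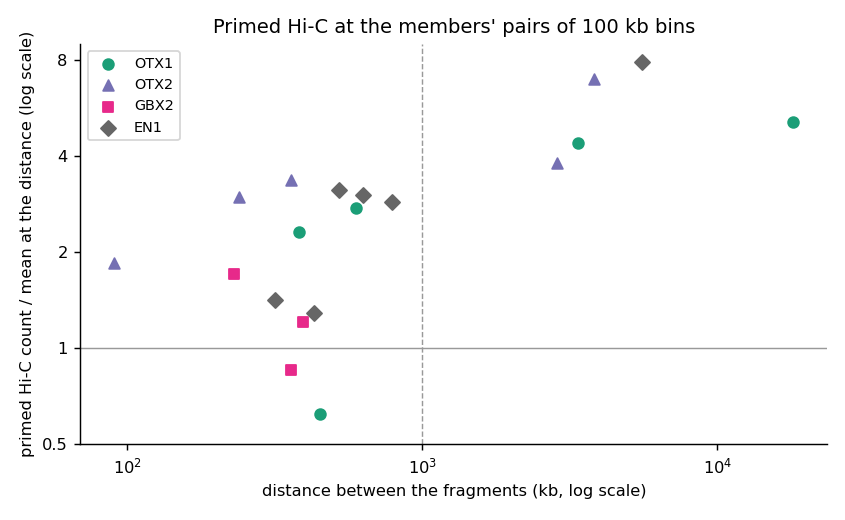
Primed Hi-C count of each pair of 100 kb bins that holds a member's interaction, divided by the mean count at the same distance (log scale), against the distance between the fragments (kb, log scale). The 5 pairs right of the dashed line at 1 Mb lie between 3.81 and 7.91, and the 14 to its left between 0.62 and 3.36.

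At the bait fragments, H3K4me1 differed between the cell types at *EN1* alone among the 4 genes by the threshold. It was compared over all 88413 fragments in either list as the mean log2 RPM of the tiles, with limma and Benjamini-Hochberg adjustment at 0.05, without a filter on level. Over all fragments, 9.81% were higher in primed, 15.2% were higher in naive and the median difference was -0.06. The *EN1* promoter fragment was at -1.77 and -1.53 in the naive libraries and at 0.11, 0.02 and 0.14 in the primed ones, a log2 difference of 1.74 ± 0.36 (SE; adjusted p = 0.00013, limma). The second *EN1* fragment was at -2.11 and -2.08 in naive and -0.30, -0.30 and -0.58 in primed PSCs, a difference of 1.70 ± 0.36 (adjusted p = 0.000164, limma). The naive and primed libraries did not overlap at either. The share of all fragments without overlap was not computed, so absence of overlap here and below only describes the fragment named.

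The baits of *OTX2*, *OTX1* and *GBX2* carried H3K4me1 in both cell types. *OTX2* had 0.46 and 0.29 log2 RPM in naive and 0.77, 0.29 and 0.42 in primed PSCs, a difference of 0.12 ± 0.38 with a 95% interval of -0.64 to 0.88 (adjusted p = 0.905, limma). *OTX1* had 0.86 and 0.37 in naive and 0.91, 0.55 and 0.53 in primed (0.05 ± 0.38, interval -0.72 to 0.82, adjusted p = 0.967). *GBX2* had -0.18 and -0.08 in naive and 0.51, -0.03 and -0.07 in primed (0.27 ± 0.37, interval -0.48 to 1.01, adjusted p = 0.731). The libraries overlapped between the cell types at *OTX1* and *OTX2*, while at *GBX2* the lowest primed library was just above the highest naive one. The 3 intervals reach from -0.72 to 1.01 on the log2 scale and do not show that the levels are equal. Averaged over the 5 libraries, the levels exceeded 99.0% of all fragments at *OTX1*, 98.4% at *OTX2*, 96.6% at *GBX2*, 90.9% at the *EN1* promoter fragment and 84.1% at the second one. In naive PSCs *OTX1* and *OTX2* overlapped each other and lay above *GBX2*, which lay above both *EN1* fragments. In primed PSCs each gene overlapped the next in this order down to the *EN1* promoter fragment. The fragments differ in length, from 3909 bp at *OTX2* to 11695 and 14254 bp at *EN1*, and each level averages tiles with and without signal. The order of levels between genes was not corrected for this.

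**Figure D3:**
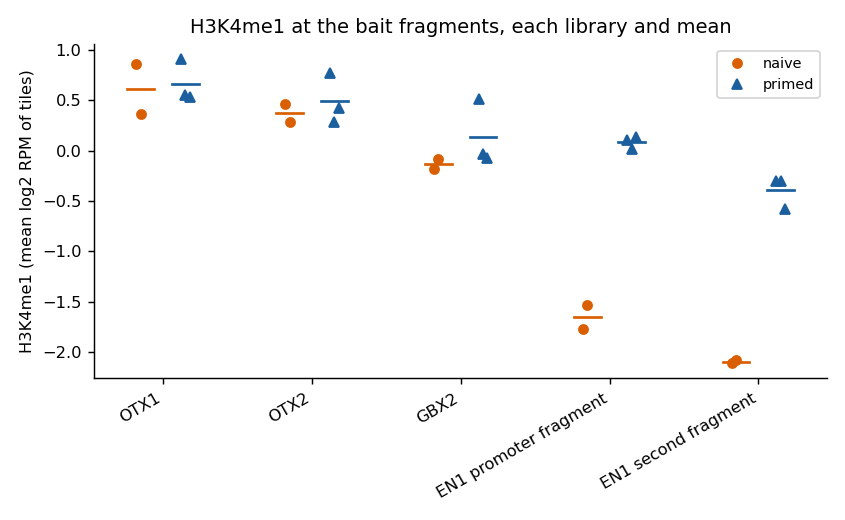
H3K4me1 as the mean log2 RPM of the 500 bp tiles of each bait fragment, with naive libraries as circles, primed libraries as triangles and horizontal lines at the means. The naive and primed points lie apart by 1.74 and 1.70 on average at the *EN1* fragments and by at most 0.27 at the other baits.

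In tiles of 500 bp, which were tested where at least 2 libraries exceeded 0 log2 RPM, 25.9% of all tested tiles were higher in primed and 26.1% in naive. None of the 10 tested tiles of the *OTX1* bait passed in either direction. Of the *OTX2* bait 1 of 9 tiles was higher in primed, at -2.8 kb from the start, and of the *GBX2* bait 2 of 11, at 2.1 and 5.1 kb downstream. At *EN1* 25 of 31 tested tiles were higher in primed, on both sides of the start. A tile could enter the test through its primed values alone, so this count does not add to the fragment test above. The largest *EN1* difference was 13.4 kb downstream of the start, where the tile stood at -2.86 and -2.91 in naive and 0.76, 1.19 and 1.29 in primed PSCs. The value of -2.91 is that of an empty tile in the second naive library, so the size of this difference depends in part on that floor. No tile of the 5 baits was higher in naive.

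The 98 interactions reached 77 partner fragments. H3K4me1 was higher in primed at 19 of them (24.7%) and higher in naive at 4 (5.19%), and 54 did not pass. The 65 fragments with an interaction in the primed list only held all 19 and all 4 of these. These classes overlap, since a fragment contacted by both *EN1* baits can be in more than 1. The 13 fragments with an interaction in both lists held 3 of those higher in naive. The 9 with an interaction in the naive list only held 1 of those higher in primed. Among partner fragments of all primed-only interactions over the whole data, 11.2% were higher in primed and 12.7% higher in naive. The like counts for the members are the 19 and 4 of 65 fragments. The median difference over these 65 was 0.46, against 0.01 for the primed-only partners of the whole data. Over all 77 partners of the members it was 0.44, and over all fragments -0.06. *OTX2* had 7 of 15 partners higher in primed, *GBX2* 4 of 8, *OTX1* 3 of 10 and *EN1* 5 of 44. The 4 partners higher in naive were all of *EN1*. Of the 11 partners over 1 Mb away, 8 were higher in primed and none in naive, with a median of 1.48. Of the 66 nearer ones 11 and 4 were, with a median of 0.40. The 11 lie in only 5 pairs of Hi-C bins. The shares over all partners more than 1 Mb away in the whole data were not computed, so the count is not shown to be particular to these genes. Partners next to each other are not independent. The counts rest in part on single libraries, since 7 partners were higher in primed without the first naive replicate and 14 of the 19 calls held without the second, and 1 partner was higher in naive without the second. Calls that held in all 10 alternatives included those at *LINC01833*, at 1 fragment of *AGAP1* and at 1 *EN1* partner with a difference of 1.37.

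**Figure D4:**
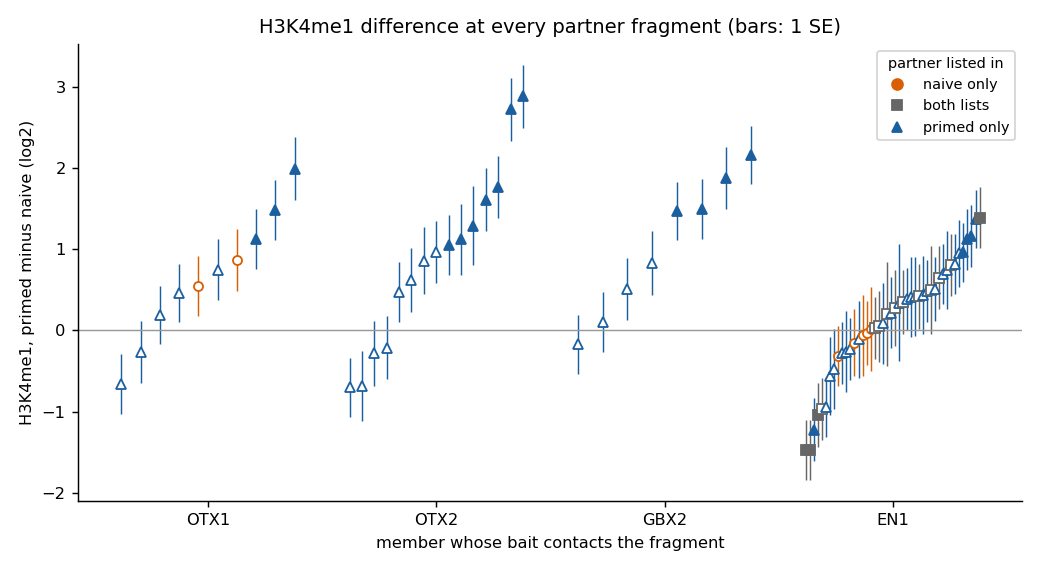
Difference in H3K4me1 (log2, primed minus naive, bars of 1 SE) at every partner fragment by gene, ordered by value, with filled symbols for those past the threshold and the symbol giving the list that holds the interaction. The filled symbols of *OTX1*, *OTX2* and *GBX2* all lie above 0, and *EN1* has 5 above and 4 below.

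At the *BMP4* fragment contacted by *OTX2*, the naive libraries were at -1.50 and -1.25 and the primed ones at 1.00, -0.35 and 0.53 (1.77 ± 0.38, adjusted p = 0.000219, limma). Every primed library was above both naive ones, but the call did not hold without the first naive replicate. Of the nearer *OTX2* partners, 3 passed with 1.05, 1.12 and 1.29, and none of their tiles had the signal needed to enter the tile test. The fragment with 1.29 stood at -4.55 and -2.91 in naive, where an empty tile is at -4.60 and -2.91. The one with 1.05 stood above that level, at -3.03 and -2.62 in naive and -1.58, -1.83 and -1.89 in primed. All 3 lost the call without the first naive replicate and in at least 4 further settings.

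For *GBX2*, the fragment chr2:235804308-235808624 in *AGAP1* was at -2.73 and -2.57 in naive and -0.38, -0.51 and -0.57 in primed PSCs (2.16 ± 0.36, adjusted p = 2.47e-06, limma). Next were 3 fragments nearer to *GBX2* with 1.88, 1.49 and 1.47. None of the 4 overlapped between the cell types, but these 3 lost the call without 1 or the other of the naive replicates. At *OTX1*, the *LINC01833* start was at -0.51 and -0.75 in naive and 1.82, 0.69 and 1.56 in primed (1.99 ± 0.39, adjusted p = 5.94e-05). One *MEIS1* fragment rose by 1.48, though not past the threshold without the first naive replicate. The *MEIS1* fragment with the higher score had a difference of -0.66 and every primed library below the naive ones, but did not pass, and the third had -0.26 with overlapping libraries. The fragment in *WDPCP* that passed had a difference of 1.13, from -2.74 and -2.33 in naive to -0.84, -1.90 and -1.47 in primed, and did not pass without either naive replicate.

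**Figure D5:**
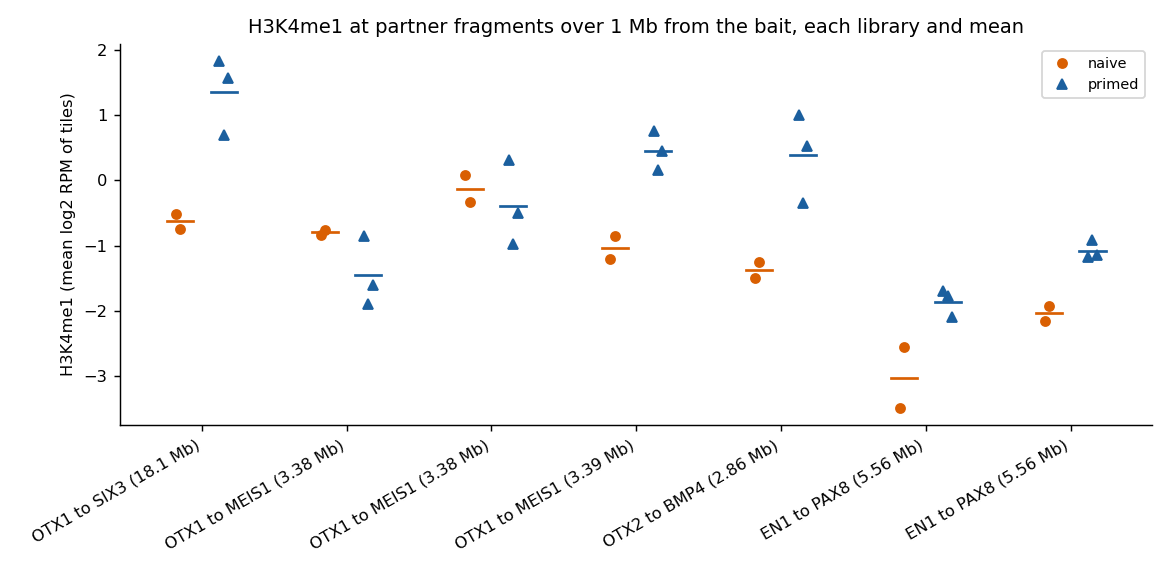
H3K4me1 as the mean log2 RPM of tiles in each library at 7 of the 11 partner fragments over 1 Mb from their bait, labelled by the member, the nearest coding gene and the distance, with lines at the means. The primed libraries lie above the naive ones at 5 of the 7, the exceptions being 2 fragments of *MEIS1*. Such separation also occurred at partners that did not pass the threshold, and its share over all fragments was not computed.

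For *EN1*, the partners went both ways. The *PAX8-AS1* fragment and the *PAX8* promoter fragment had differences of 1.16 and 0.96, which were not called without the first naive replicate. The first call held in 6 of 10 alternatives and the second in 4, not including the replicate block. The largest rises were 1.39 and 1.37 at neighbouring fragments 785.8 to 801.4 kb away in a lncRNA gene, one of which the second *EN1* fragment contacted in naive PSCs and the promoter fragment in primed. The 4 partners higher in naive lay together at chr2:118355685-118369415. The fragment chr2:118368066-118368434 was at -0.36 and 0.57 in naive and -1.56, -1.40 and -1.15 in primed PSCs (-1.47 ± 0.37, adjusted p = 0.00146, limma). The next one was at 0.10 and 0.06 in naive and -0.98, -1.79 and -1.40 in primed (-1.47 ± 0.37). At this place the contact with the *EN1* promoter fragment was in both lists, with 8 and 14 reads in naive and 15 and 19 in primed. Larger read numbers and lower H3K4me1 in the primed state thus stood side by side there, and each of the 4 calls was lost without 1 of the naive replicates. The *THORLNC* start had a difference of 0.35 that did not pass.

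By partners in common, the bait most like *OTX1* was the adjoining *EHBP1-AS1* fragment, with 8 of 19 partners of either shared. *OTX2* shared 4 of 23 with the lncRNA gene ENSG00000259133 at 82.4 kb and 8 of 58 with ENSG00000258428 at 162.7 kb. *GBX2* shared 3 of 14 with the fragment of *ASB18*. The *EN1* fragments shared 21 of 44 with each other, and the second one shared 1 of 38 with *PAX8*. Of the baits named here, apart from *PAX8*, *SPRED2* (2 of 16 with *OTX1*) and 1 partner in common between the second *EN1* fragment and the *EHBP1-AS1* bait, these were neighbours within 389.5 kb.

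A list of 52 further genes of forebrain, midbrain and isthmus patterning was read in the same way, with 43 of them on a baited fragment that holds the main transcript start. They had 374 naive and 899 primed interactions. Of the 43 baits, 25 had at least 2-fold more in primed and none in naive, beside 12.3% and 9.58% of all baits. Interactions over 1 Mb numbered 14 in naive at 2 baits and 248 in primed at 30 baits, beside the 9.73%. The largest differences in number were at *EN2* (1 and 46), the relative of *EN1*, *NKX2-1* (20 and 63), *POU3F2* (10 and 48), *SIX3* (3 and 30), *EMX2* (4 and 27), *LHX2* (8 and 30), *DMRTA2* (3 and 25) and *PAX5* (1 and 22). H3K4me1 at the bait was higher in primed at 13 of the 43 and in naive at 1, beside 9.81% and 15.2% of all fragments. The median was 0.47 against -0.06 over all fragments. Most of these fragments are not baits, and the shares over baits alone were not computed. Including the members, the largest changes were 3.64 at *CER1*, a secreted antagonist of Nodal, BMP and Wnt, 2.62 at the eye-field gene *SIX6*, 1.74 at *EN1*, 1.42 at *FEZF1*, 1.41 at *LHX5*, 1.39 at *VAX1* and 1.37 at *SHH*. *SOX3*, a neural and pluripotency-related factor, was the one lower in primed, at -1.71. The gene list and the members were chosen with earlier results of these data known, and the counts are a description.

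Lists of cell type markers were read at their baits in the same way, beside the 9.81% of all fragments that were higher in primed and the 15.2% higher in naive. Here too, the shares over baits alone were not computed. Of the markers of naive PSCs, 5 of 12 were on baits, and 0 were higher in primed and 3 in naive (*DPPA3*, *DPPA5* and *SUSD2*). Of the markers of primed PSCs, 8 of 12 were on 7 bait fragments, of which 2 were higher in primed and 1 in naive. Of 8 baited neural markers 4, and of 10 baited mesendoderm markers 3, were higher in primed and none in naive, with median naive levels of -1.11 and -0.72 and median primed levels of -0.19 and -0.40. In interactions, the neural markers had 58 in naive and 153 in primed, of which 4 and 56 were over 1 Mb, and 6 of the 8 baits had at least 2-fold more in primed. The mesendoderm markers had 85 and 137, of which 0 and 38 were over 1 Mb, and 6 of the 10 baits had at least 2-fold more in primed. Those of primed PSCs had 41 and 96, with 2 of 7 baits at least 2-fold higher in primed and 1 in naive, and those of naive PSCs 37 and 37. For all baits, the shares with at least 2-fold more in primed and in naive were the 12.3% and 9.58% given above. The part of differentiating cells in the results of *OTX1*, *OTX2*, *GBX2* and *EN1* was not tested.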

How the data were processed

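PCHi-C, Hi-C and H3K4me1 CUT&RUN libraries of naive and primed PSCs were grouped by their labels. The naive ChIP-seq libraries were not used. For PCHi-C, the authors mapped read pairs to GRCh38, filtered them with HiCUP, and normalised and combined 2 replicates in CHiCAGO. They deposited pairs with a score of at least 5, each with a read number of the normalised and combined replicates rather than a raw count. The Hi-C files are unnormalised counts of di-tags, as the authors made them, per pair of 100 kb bins. For H3K4me1, the authors trimmed reads (Trim Galore 0.5.0), mapped them (Bowtie2 2.3.2, per the submitters' processing notes) and deposited log2 RPM per 500 bp tile, with 0.90 reads given to empty tiles, from which library sizes were computed.

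Interactions listed from both baits were merged, keeping the higher score. Promoters were placed with GENCODE, whose gene models are later than those of the study. Distances run between fragment middles. For H3K4me1, limma 3.58.1 was run in R 4.3.3 (moderated linear model with a mean-variance trend, two-sided, Benjamini-Hochberg over all features, threshold 0.05) on fragments and on 465156 tiles above 0 log2 RPM in at least 2 libraries, after a test on simulated data. The study does not say whether libraries were separate cultures beyond calling them biological replicates. PCHi-C and Hi-C, with 1 list or library per cell type, were not tested, and their intervals cover counting error only. The members and the lists were chosen with earlier results of these data known. Text names all members, their partner fragments over 1 Mb that carry a gene, up to 5 partners per member with the largest change past the threshold and no overlap, the 8 genes of the wider list with the largest H3K4me1 change past the threshold and the 8 with the largest difference in interactions, and up to 3 most similar baits among those with at least 5 partners. 1 locus contacted by *OTX2* is not reported here, though totals include it, and the tile shown for each gene is the one with the largest change outside it. Other partners are named to describe where each gene's contacts lie, and were chosen after their values were seen. Alternatives were other score, read and distance limits, H3K4me1 filters and scalings, a replicate block and each library left out. Other steps used numpy 2.4.6, scipy 1.17.1, pandas 2.3.3 and matplotlib 3.10.9 in Python 3.11.15.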

Additional observations from a re-analysis of the deposited data

How the results depend on the processing

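The members' ratio of primed to naive interactions was 3.87, and was 7.43 at a score of at least 7 (52 and 7 interactions), 9 at a score of at least 10 (18 and 2), 5.36 with at least 10 reads and 3.78 with equally long lists. At a score of at least 10, *OTX1* and *GBX2* had no interaction in either list. The share of the members' primed interactions also in naive rose from 15.7% to 48.3% with a tolerance of 10 kb. The Hi-C ratio of the 5 long pairs was 8.22 against the median at the distance and 2.4 after division by coverage. Partners higher in primed numbered 19 and were 12 without the mean-variance trend and 7 to 23 with a library left out, lowest without the first naive replicate. Those higher in naive numbered 4 and were 2 without the trend, 2 above a mean of -2 log2 RPM and 1 to 6 with a library left out, lowest without the second naive replicate. No called partner changed sign. Over all fragments, leaving out a library gave 3154 to 9412 higher in primed and 7707 to 14718 in naive, and over tiles 65896 to 134820 in naive. Tiles higher in naive numbered 209078 when signal in 1 library was enough. With the replicate block, 8848 and 11702 fragments and 17 and 4 partner fragments passed in the 2 directions. The replicate numbers were not treated as pairs, since only 2 are shared (correlations of deviations of 0.08 and 0.20) and the labels tie them to no common batch. The uncalled bait differences ran from -0.20 to 0.30 at *OTX1* with a library left out, below 0 without the second naive or the first primed replicate (-0.07), and from -0.02 to 0.22 at *OTX2*. The *EN1* baits passed in all 10 alternatives. Contacts of 3 to 10 reads limit what can be said of single long-range pairs.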
